A study of Homo sapiens with 6 samples.

Results

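The E2F transcription factors and their pocket protein partners were examined by symbol: E2F1 to E2F8, RB1 and RBL1, 10 genes of the 59008 gene symbols in the deposited table. All 10 were found, and each averaged 1 TPM or more over the 6 libraries (TPM is abundance per transcript length, scaled within a library). E2F2 reached this mean through the SKOV3 libraries, since its TPM was between 0.142 and 1.09 in Hey. The libraries came from Hey and SKOV3, established human ovarian cancer cell lines. Parental cells were untreated. PGCCs (polyploid giant cancer cells) and daughter cells had been exposed to 500 nM paclitaxel, which freezes microtubules and so stops cells in mitosis, for 16 hours per the treatment labels. PGCCs then recovered for 3 days and daughter cells for 30 days in drug-free medium. The title of the SKOV3 PGCC library gives day 7, whereas its treatment label and the study's methods give 3 days. Both daughter libraries are labelled as clone 1, so each stands for a single clone. Each of the 6 conditions has 1 library, so no level carries an error, and the other cell line is the only repeat of a comparison. RNA was taken from bulk cultures, in which fewer cells of a type and less RNA per cell cannot be told apart.

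E2F proteins bind DNA at the promoters of genes for DNA replication and cell division. E2F1, E2F2 and E2F3 activate these genes as cells enter S phase. E2F4 and E2F5 act mainly as repressors in complex with pocket proteins, E2F6 represses without them, and E2F7 and E2F8 are atypical repressors that bind DNA without a dimerization partner. The pocket proteins RB (from RB1), p107 (from RBL1) and p130 (from RBL2) restrain E2F until cyclin-dependent kinases phosphorylate them. E2F7 and E2F8 are also known for their part in normal polyploidy, as in the liver and in the giant cells of the placenta.

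The TPM columns summed to between 911825 and 920497. Transcripts of the mitochondrial genome took between 2.64% (Hey parental cells) and 14.8% (SKOV3 daughter cells) of the TPM. Of the 8 epithelial and ovarian markers listed, KRT7, KRT8, KRT18 and PAX8 were above 50 TPM in every library, whereas KRT19, EPCAM, MUC16 and CDH1 stayed at or below 3.60 TPM in Hey. In SKOV3 several markers differed between states, and the members of a list did not move together. CDH1 rose over parental, PGCC and daughter libraries (1.47, 4.35 and 8.35 TPM). KRT18 (220, 420 and 414 TPM) and PAX8 (65.6, 136 and 112 TPM) were above parental cells in PGCCs and daughter cells. LUM was lowest in daughter cells (8.84, 9.31 and 5.56 TPM). The 8 epithelial and ovarian markers summed to 1477, 3298 and 1429 TPM. Over parental, PGCC and daughter libraries EPCAM read 68.8, 43.6 and 8.15 TPM, KRT19 292, 711 and 80.2 TPM, CD68 17.1, 20.03 and 0.840 TPM and COL1A1 2.35, 1.33 and 16.3 TPM. The 7 fibroblast markers summed to between 0.263 TPM (Hey daughter cells) and 28.2 TPM (SKOV3 daughter cells), with COL3A1 at 0 in 5 of 6 libraries. Among the leukocyte markers PTPRC and CD3E were listed at 0 in all Hey libraries, and CD68 alone exceeded 1 TPM, in 5 of 6 libraries. Of the endothelial markers, CDH5 had a TPM between 33.2 and 48.5 in Hey, and PECAM1 and VWF stayed below 1 in all 6 libraries. The part of these markers in the results below was not tested.

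Promoter sequence is shown first for the members whose own promoters carry the E2F word, since E2F genes can be targets of E2F. Windows of 250 bases before to 50 bases after an annotated start were taken from RefSeq (GRCh38.p14) and matched 8 of the 10 members with 9 windows. E2F5 and E2F8 had none. The 250 bases before the start were searched on both strands for the 4 words TTTCCCGC, TTTGGCGC, TTTCGCGC and TTTGCCGC. Of all 35116 windows, 2.79% held at least 1 of these words. Among the members, E2F1 and RBL1 held 2 matches each and E2F2 and E2F3 held 1 each, that of E2F3 in 1 of its 2 windows. The matches are printed on the strand of the gene, with the words or their reverse complements in capitals.
E2F1: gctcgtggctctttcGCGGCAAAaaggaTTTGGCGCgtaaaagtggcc
RBL1: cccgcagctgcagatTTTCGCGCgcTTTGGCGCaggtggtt
E2F2: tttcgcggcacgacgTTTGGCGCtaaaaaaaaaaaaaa
E2F3: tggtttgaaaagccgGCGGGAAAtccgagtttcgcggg
The E2F1 stretch lies at chr20:33686386-33686433 (minus strand), the RBL1 stretch at chr20:37095998-37096038 (minus), the E2F2 stretch at chr1:23531253-23531290 (minus) and the E2F3 stretch at chr6:20401811-20401848 (plus). E2F1 and RBL1 matches began 33 and 20 bases and 26 and 16 bases before the start, and those of E2F2 and E2F3 began 42 and 53 bases before it. In the windows of E2F4, E2F6, E2F7 and RB1 these letters were not found, and the RB1 window belongs to an internal start 172456 bases into the gene. A match is a description of letters and not a measured binding site.

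E2F1, an activator on chromosome 20 from 33675477 to 33686385 (minus strand, GRCh38), stood at 8.67 TPM in Hey parental cells, 1.97 TPM in Hey PGCCs and 15.4 TPM in Hey daughter cells. The SKOV3 series, in the same order of states, read 24.2, 29.5 and 20.1 TPM. The PGCC library was thus the lowest of the Hey libraries and the highest of the SKOV3 libraries. Changes are given as differences of log2(TPM + 1) within a line and called from a log2 difference of 1 upwards, which is 2-fold. E2F1 was downregulated by this rule in Hey PGCCs compared with parental cells, with a difference of -1.70 and a 4.41-fold lower TPM. The 14988 genes that averaged 1 TPM or more serve as the background, and 1.37% of them had a difference this low or lower. Hey daughter cells were 2.47 above PGCCs on the log2(TPM + 1) scale, a 7.83-fold higher TPM. SKOV3 PGCCs differed from their parental cells by 0.27, or by -0.56 after subtraction of the GC and length trend, and neither passed the threshold.

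**Figure D1:**
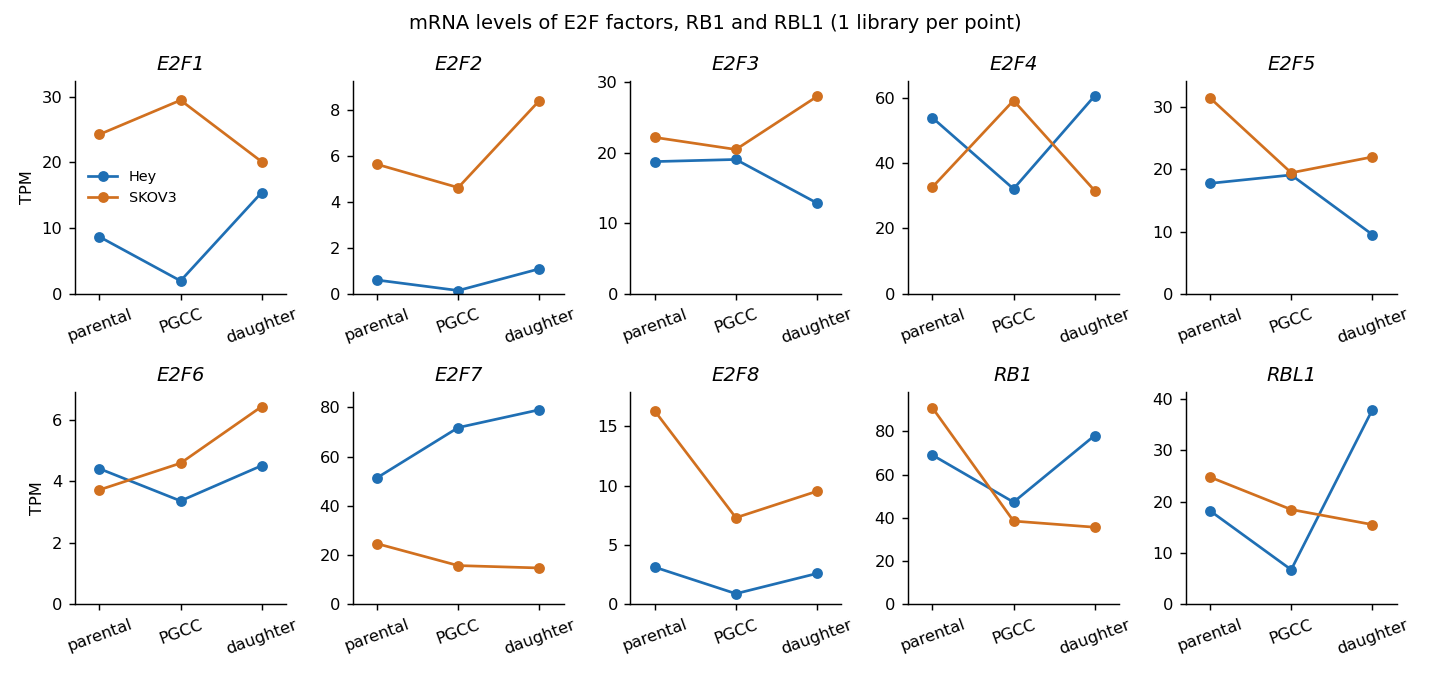
TPM of the 10 genes by state (parental, PGCC, daughter) in Hey (blue) and SKOV3 (orange), 1 library per point, with lines joining the libraries of a cell line and a separate TPM axis from 0 for each gene. E2F1 is lowest in Hey PGCCs (1.97) and highest in SKOV3 PGCCs (29.5), where its difference from parental cells turns from 0.27 to -0.56 without the GC and length trend, and E2F7 is higher in every Hey library (51.4 to 79.0) than in any SKOV3 library (14.8 to 24.7). The share of all genes separated by line in this way was not counted.

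E2F2, an activator on chromosome 1 (23506438 to 23531233, minus strand), was low in Hey, at 0.599 TPM (parental), 0.142 TPM (PGCC) and 1.09 TPM (daughter). Its SKOV3 values were 5.65, 4.63 and 8.42, each above the highest Hey value, and the share of all genes separated in this way was not counted. PGCCs held the lowest E2F2 level of each line. The differences between PGCCs and parental cells were -0.49 in Hey and -0.24 in SKOV3, and neither was called. In Hey the TPM was 4.21-fold lower, but at values under 1 the added 1 dominates the log2 scale, and with a pseudocount of 0.1 the difference was -1.53 and with quantile normalization -1.02, both past the threshold.

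E2F3, the third activator, lies on chromosome 6 from 20401879 to 20493714 (plus strand). Over parental, PGCC and daughter libraries it read 18.7, 19.0 and 12.9 TPM in Hey and 22.2, 20.5 and 28.0 TPM in SKOV3. The highest level was 2.17-fold the lowest. E2F3 was not called in any comparison, and its PGCC differences were 0.02 in Hey and -0.11 in SKOV3. With E2F1 and E2F2 low, E2F3 supplied 90.0% of the summed TPM of the 3 activators in Hey PGCCs, against 66.9% in Hey parental and 43.8% in Hey daughter cells. Its share in SKOV3 was 42.6%, 37.5% and 49.5%.

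E2F4, the main repressor bound to p107 and p130, lies on chromosome 16 from 67192155 to 67198918 (plus strand). Hey held 53.8 TPM (parental), 32.1 TPM (PGCC) and 60.5 TPM (daughter). In SKOV3 it had 32.6, 59.1 and 31.6. The PGCC library was the lowest in Hey and the highest in SKOV3, at differences of -0.73 and 0.84 from parental cells. With the GC and length trend removed these were -0.68 and 0.24. Neither difference was called. E2F4 was the most abundant E2F in 4 libraries, Hey parental cells and the 3 of SKOV3, and the next after E2F7 in Hey PGCCs and daughter cells.

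E2F5, also a pocket-bound repressor, lies on chromosome 8 from 85177154 to 85217158 (plus strand). Its 3 Hey states read 17.8, 19.1 and 9.53 TPM. The SKOV3 values were 31.5, 19.5 and 22.0. PGCCs of both lines were close, at 19.1 and 19.5, although the parental levels were 1.77-fold apart. The closest approach to the threshold was the difference of -0.93 between Hey daughter cells and PGCCs. This value passed the threshold with median-ratio scaling, quantile normalization and mitochondrial genes left out, and reached -1.06 at its lowest.

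E2F6, which represses as part of a Polycomb complex, lies on chromosome 2 from 11444375 to 11466177 (minus strand). It was between 3.37 TPM (Hey PGCCs) and 6.43 TPM (SKOV3 daughter cells). This 1.91-fold span was the smallest of the 10 genes, and no comparison called it. Its Hey states read 4.41, 3.37 and 4.51 TPM, and its SKOV3 states 3.73, 4.59 and 6.43 TPM.

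E2F7, an atypical repressor and a known target of p53, lies on chromosome 12 from 77021248 to 77065569 (minus strand). Hey held 51.4 TPM (parental), 71.8 TPM (PGCC) and 79.0 TPM (daughter), and SKOV3 24.7, 15.8 and 14.8 TPM. All 3 Hey libraries were above all 3 SKOV3 libraries, a separation whose share among all genes was not counted. The ratio between the lines was 2.09-fold in parental cells, 4.55-fold in PGCCs and 5.33-fold in daughter cells. Within the lines the PGCC differences were 0.47 in Hey and -0.61 in SKOV3 and were not called. In Hey PGCCs E2F7 was at percentile 88.8 of the 14988 genes by TPM, and in SKOV3 PGCCs at 53.5.

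E2F8, its partner among the atypical repressors, lies on chromosome 11 from 19224063 to 19241620 (minus strand). The Hey libraries held 3.14 TPM (parental), 0.909 TPM (PGCC) and 2.61 TPM (daughter). The SKOV3 levels were 16.3, 7.29 and 9.52, so the lines did not overlap and stood in the opposite order from E2F7. The share of all genes whose lines do not overlap was not counted, so whether this is particular to E2F8 was not tested. PGCCs were the lowest library of each line. E2F8 was the only member downregulated in PGCCs of both lines, at -1.12 in Hey and -1.06 in SKOV3. Of the 14988 genes, 0.834% were called lower in both lines. Once the trend of all genes with GC content and length was subtracted, as described below, the SKOV3 difference was -0.89 and no longer passed.

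RB1, which encodes the retinoblastoma protein, lies on chromosome 13 from 48303744 to 48599436 (plus strand). Hey held 69.0 TPM (parental), 47.3 TPM (PGCC) and 78.1 TPM (daughter). SKOV3 had 90.9, 38.5 and 35.7. In SKOV3 the PGCC and daughter libraries both lay below the parental library, whereas in Hey the daughter library lay above it. RB1 was downregulated in SKOV3 PGCCs, at -1.22, and in SKOV3 daughter cells compared with parental cells, at -1.32 (2.55-fold lower). These comparisons share the SKOV3 parental library, which alone was high. The SKOV3 daughter library, in which RB1 was called, had the lowest EPCAM, KRT19 and CD68 and the highest COL1A1 of that line. Other listed markers went the other way, with CDH1 highest (8.35 TPM) and LUM lowest (5.56 TPM) in that library. The part of the markers in the RB1 call was not tested. After removal of the GC and length trend the PGCC value was -0.65 and lost its call. The Hey PGCC difference was -0.54 and was not called.

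RBL1, which encodes p107, a pocket protein whose gene is itself activated by E2F, lies on chromosome 20 from 36996349 to 37095997 (minus strand). Its Hey states read 18.2, 6.77 and 37.9 TPM. The SKOV3 values were 24.8, 18.5 and 15.6. As for E2F1, Hey PGCCs were the lowest and Hey daughter cells the highest library of that line. RBL1 was downregulated in Hey PGCCs at -1.31 and was higher in Hey daughter cells than in PGCCs by 2.32, a 5.60-fold higher TPM. It was also called higher in Hey daughter than in parental cells, at 1.02, a call just past the threshold that was lost with median-ratio scaling (0.92) and quantile normalization (0.90). In SKOV3 none of its 3 differences was called.

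Counted over the 10 genes, 0 were upregulated and 3 downregulated (E2F1, E2F8 and RBL1) in Hey PGCCs compared with parental cells. Of all genes tested, 7.67% were upregulated and 5.22% downregulated. The median difference of the 10 genes was -0.51, and that of all genes tested was 0. In SKOV3 PGCCs 0 were upregulated and 2 downregulated (E2F8 and RB1), with 9.94% and 4.96% of all genes. The median of the 10 was -0.32 beside 0.02 for all genes. The signs were opposite between the lines for 6 of the 10 genes, as for 48.6% of all genes, a share near the background. The other 4, E2F2, E2F8, RB1 and RBL1, had lower values in both PGCC libraries. E2F4 alone had opposite differences of at least 1.5-fold in each line, as 6.83% of all genes did.

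Hey daughter cells had 2 genes higher than PGCCs (E2F1 and RBL1) and 0 lower, beside 9.95% and 8.13% of all genes. Their median difference was 0.79, against 0.03 for all genes. SKOV3 daughter cells had 0 higher and 0 lower than PGCCs, where 14.6% and 9.25% of all genes were called, and the median was 0.04 beside 0.12. Compared with parental cells, Hey daughter cells had 1 gene higher (RBL1) and 0 lower, beside 6.31% and 3.73%, and SKOV3 daughter cells had 0 higher and 1 lower (RB1), beside 15.1% and 6.34%. Calls shared by both lines numbered 0 of the 10 genes between daughter cells and PGCCs (1.21% of all genes higher, 1.07% lower) and 0 between daughter and parental cells (1.19% and 0.387%). The signs were opposite for 7 genes (52.2% of all genes) and 6 genes (47.9%). Opposite differences of at least 1.5-fold in each line were found for E2F4 in the first case (10.7% of all genes) and for E2F7 and RBL1 in the second (6.26%). Median-ratio scaling and quantile normalization shifted the median of all genes by between -0.11 and -0.18 in the SKOV3 daughter comparisons, and leaving out mitochondrial genes raised it by 0.11 in Hey PGCCs against parental cells and in SKOV3 daughter cells against PGCCs. Comparisons within a line share libraries and are not independent of each other. In all, 4 of the 10 genes were called in at least 1 comparison, and E2F2 to E2F7 in none.

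**Figure D2:**
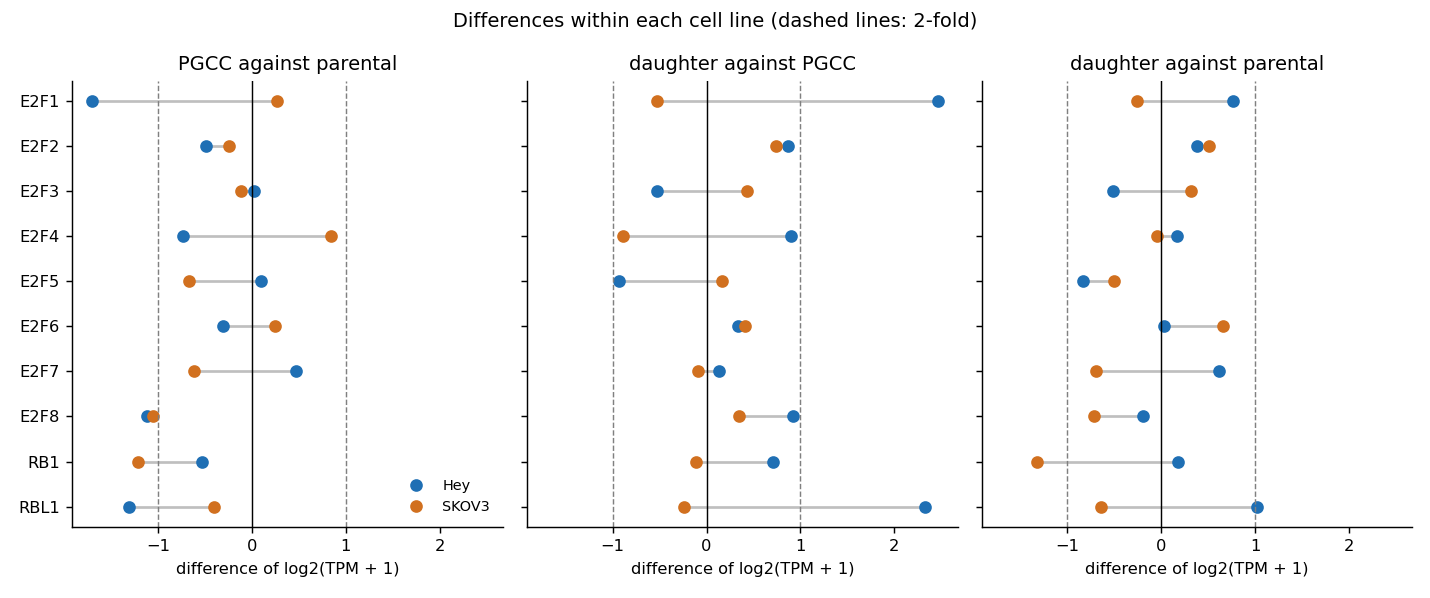
Differences of log2(TPM + 1) for the 10 genes between PGCCs and parental cells, daughter cells and PGCCs, and daughter and parental cells, with Hey in blue, SKOV3 in orange, a grey line joining the lines and dashed lines at a 2-fold change. E2F8 lies past the line in both cell lines on the left (-1.12 and -1.06). Its SKOV3 value is -0.89, short of the line, with the GC and length trend removed. E2F1 (2.47) and RBL1 (2.32) pass the line in Hey alone in the middle panel.

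Across both lines together, a fit had state and cell line as terms (limma, 2 residual degrees of freedom). Its error was the disagreement of the lines, moderated by empirical Bayes towards the variance trend of all genes tested. The standard errors and p-values of a gene therefore rest in part on other genes. The fit gave 0 of the 10 genes an adjusted p under 0.05 in any of the 3 comparisons. It called 0.02% of all genes between PGCCs and parental cells, 0% between daughter cells and PGCCs and 0.0133% between daughter and parental cells. At an unadjusted p under 0.05 by limma, 1 of the 10 passed between PGCCs and parental cells, where 2.73% of all genes did, and 0 in the other comparisons, with 5.06% and 3.39%. The gene was E2F8, whose mean difference of -1.09 (standard error 0.443) came with an unadjusted p of 0.0424 in limma, or an adjusted p of 1 with Benjamini-Hochberg adjustment. Over the alternative fits its adjusted p was between 0.886 and 1, and it was lower in 2 of 2 lines. RB1 had -0.88 (standard error 0.448, adjusted p of 1 by limma) and E2F1 -0.72 (standard error 0.680, adjusted p of 1 by limma). With single libraries left out, the value of RB1 ranged from -1.42 (without Hey parental cells) to -0.33 (without SKOV3 parental cells). That of E2F1 ranged from -1.96 (without SKOV3 PGCCs) to 0.53 (without Hey PGCCs), so its sign rested on the Hey PGCC library. Over the alternatives these adjusted p values stayed between 0.900 and 1 and between 0.918 and 1.

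The balance between the kinds of E2F differed between the lines, and it was described by sums of TPM, which are per transcript length. The 8 E2F genes summed to 159 TPM in parental cells, 148 TPM in PGCCs and 186 TPM in daughter cells of Hey, and to 161 TPM, 161 TPM and 141 TPM in SKOV3. The activators E2F1 to E2F3 took 17.7%, 14.2% and 15.8% of this sum in Hey and 32.4%, 33.9% and 40.1% in SKOV3. E2F7 and E2F8 took 34.4%, 49.0% and 43.98% in Hey and 25.4%, 14.4% and 17.3% in SKOV3. The shares still hold the GC and length trend described below. Between SKOV3 PGCCs and parental cells this trend was 0.83 at E2F1 and 0.66 at E2F2, but -0.19 at E2F7 and -0.17 at E2F8. By the sums of TPM, the atypical repressors were above the activators in each Hey library, by 1.95-fold, 3.44-fold and 2.78-fold. In each SKOV3 library they were below the activators, at ratios of 0.786, 0.423 and 0.431. Nearly all of the atypical sum in Hey was E2F7, which exceeded E2F8 by 16.4-fold, 78.9-fold and 30.3-fold over the 3 states, against 1.52-fold, 2.16-fold and 1.56-fold in SKOV3.

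**Figure D3:**
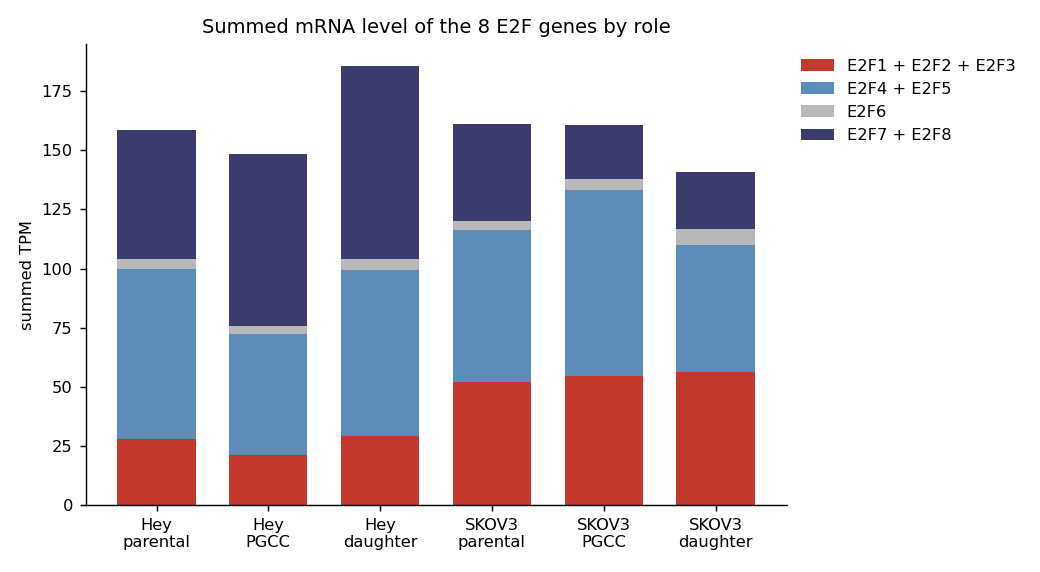
Stacked bars of the summed TPM of the activators E2F1 to E2F3 (red), E2F4 and E2F5 (blue), E2F6 (grey) and the atypical E2F7 and E2F8 (dark) in the 6 libraries, from 0. The dark part is larger in each Hey bar (54.5, 72.7 and 81.6 TPM) than in any SKOV3 bar (40.9, 23.1 and 24.3 TPM), and in each SKOV3 bar the red part (52.1, 54.5 and 56.5 TPM) exceeds the dark part.

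Ratios of genes within a library do not change when the whole library is rescaled. The ratio of E2F7 to E2F1 was 5.93 (parental), 36.5 (PGCC) and 5.13 (daughter) in Hey. In SKOV3 it was 1.02, 0.536 and 0.737. On the log2(TPM + 1) scale its SKOV3 change from parental cells to PGCCs went from -0.88 to 0.14 with the GC and length trend removed. Hey PGCCs had the highest ratio, and the other 5 libraries lay between 0.536 and 5.93. RB1 exceeded RBL1 by 3.78-fold, 6.98-fold and 2.06-fold over the Hey states and by 3.66-fold, 2.08-fold and 2.29-fold in SKOV3. RB1 took 57.2% of the summed TPM of RB1, RBL1 and RBL2 in Hey parental cells and 54.6% in SKOV3 parental cells. In PGCCs the shares were 65.1% and 41.7%, and in daughter cells 54.0% and 34.2%.

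The base composition of the transcripts moved with the SKOV3 results. Over 13468 genes with a known GC content, the SKOV3 difference between PGCCs and parental cells had a Spearman correlation of 0.72 with the GC content of the transcript, and the Hey difference one of -0.044. These correlations are across genes of the same libraries. Genes under 40% GC had a median of -0.53 in SKOV3, and genes of at least 60% a median of 0.93. Among the 10 genes E2F1 has 61.6% GC, E2F4 58.1% and E2F2 57.4%, while the other 7 lie between 37.1% (RB1) and 46.9% (E2F5). The 3 GC-rich genes differed by between -0.24 and 0.84 in SKOV3 PGCCs, and 6 of the other 7 were lower than in parental cells, with RB1 lowest at -1.22. Over the 10 genes the Spearman correlation with GC content was 0.65 in SKOV3 and -0.19 in Hey.
Subtracting the trend of all genes on GC content and transcript length changed the SKOV3 PGCC values as follows. E2F1 went from 0.27 to -0.56 in SKOV3, E2F4 from 0.84 to 0.24 and RB1 from -1.22 to -0.65. With the trend removed, 0 of the 10 genes were called in SKOV3 PGCCs in either direction, beside 2.24% of genes higher and 2.63% lower. In Hey PGCCs 0 were higher and 3 lower as before (6.09% and 5.06% of genes), at -1.59 for E2F1, -1.10 for E2F8 and -1.25 for RBL1. Hey daughter cells kept 2 higher and 0 lower against PGCCs (8.13% and 8.36%) and 1 higher and 0 lower against parental cells (4.85% and 4.31%). SKOV3 daughter cells had 0 higher and 0 lower against PGCCs (10.4% and 7.41%) and 0 higher and 1 lower against parental cells (10.8% and 7.72%). RB1 in SKOV3 daughter cells, a comparison in which the correlation of all genes with GC content was 0.15, was -1.36 with the trend removed and stayed called. The change of E2F7 minus that of E2F1 between PGCCs and parental cells was 2.18 in Hey and 2.10 with the trend removed, but in SKOV3 it turned from -0.88 to 0.14.

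**Figure D4:**
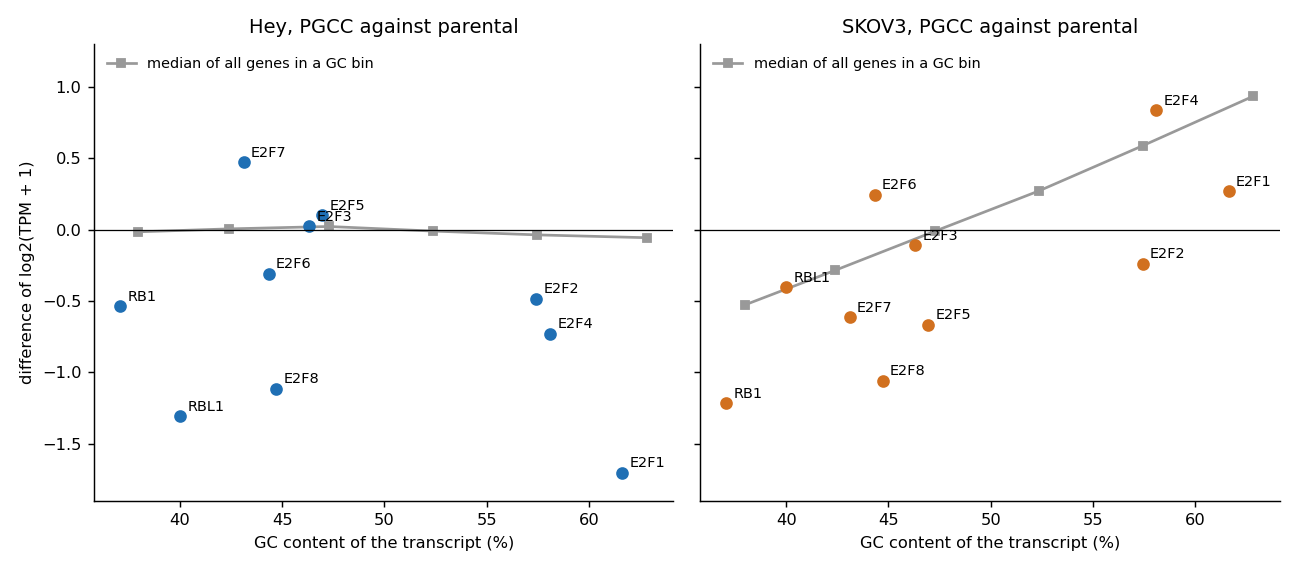
Difference of log2(TPM + 1) between PGCCs and parental cells of Hey (left) and SKOV3 (right) against the GC content of the transcript in percent, for the 10 genes (points) and as medians of all genes in 6 GC bins placed at their median GC content (grey squares). The grey line is flat in Hey and climbs from -0.53 to 0.93 in SKOV3, where the 10 genes lie between RB1 (-1.22) and E2F4 (0.84).

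The partners of these proteins were examined in lists written with earlier results of these data known. TFDP1 encodes DP1, with which E2F1 to E2F6 bind DNA. Its Hey states read 118, 54.6 and 134 TPM, and its SKOV3 states 102, 97.7 and 52.7 TPM. It was downregulated in Hey PGCCs, at -1.09, as 1 of the 2 dimerization partners that reached a mean TPM of 1 (5.22% of all genes). TFDP2, the other partner, had 63.1, 88.2 and 75.5 in Hey and 50.5, 29.2 and 38.0 in SKOV3. TFDP1 was below TFDP2 in Hey PGCCs alone, at a ratio of 0.619, and above it in the other 5 libraries, at ratios between 1.39 and 3.34. RBL2, the remaining pocket protein gene, had a TPM of 33.4, 18.5 and 28.7 in Hey and 50.9, 35.4 and 53.1 in SKOV3. Its PGCC differences of -0.82 and -0.51 were not called.

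MuvB is the complex that E2F4, DP1 and p107 or p130 join to silence cell cycle genes in the DREAM complex, and that MYBL2 and FOXM1 join to activate them. Of the 7 genes listed for the MuvB core and these activators, 3 were downregulated in Hey PGCCs and 0 upregulated (5.22% and 7.67% of all genes). These were LIN9 (-1.13), MYBL2 (-1.75) and FOXM1 (-2.21), of which LIN9 alone belongs to the core. In SKOV3 PGCCs 1 was downregulated (LIN9, -1.02) and 1 upregulated (LIN37, 1.10), beside 4.96% and 9.94% of all genes, while MYBL2 had 0.66 and FOXM1 0.44. After trend removal 0 of the 7 were called in SKOV3 (2.63% of genes lower, 2.24% higher). LIN37, MYBL2 and FOXM1 were named after their values were seen.
Among the 8 genes for RB kinases and their cyclins, CCNE2 (cyclin E2) was downregulated in both lines (0.834% of all genes), at -1.65 in Hey PGCCs and -1.48 in SKOV3 PGCCs, and CDK2 (-1.02) in Hey. The list thus had 2 downregulated genes in Hey and 1 in SKOV3, beside 5.22% and 4.96% of all genes. After trend removal 0 of the 8 were called in SKOV3 PGCCs (2.63% of genes lower, 2.24% higher). The remaining genes were not called in PGCCs compared with parental cells. CDKN1A, which encodes the CDK inhibitor p21 and is a p53 target, read 148, 480 and 89.4 TPM over the Hey states and 4.76, 6.84 and 3.73 TPM over those of SKOV3. It was upregulated by 1.70 in Hey PGCCs, as 1 of 5 CDK inhibitor genes that averaged 1 TPM or more (7.67% of all genes). In SKOV3 PGCCs 0 of the 5 were called (9.94% of all genes higher, 4.96% lower). CDKN2A, the gene of p16, was at most 0.0430 TPM in any library, and CDKN2B was listed at 0 in all 6. The CDK inhibitors and CDK2 were named after their values were seen.
Of the 4 subunits or regulators of ubiquitin ligases that turn over E2F proteins and cell cycle factors, SKP2 (-1.71), CCNF (-1.21) and FBXO5 (-1.77) were downregulated in Hey PGCCs, and FBXO5 (-1.34) in SKOV3 PGCCs, beside 5.22% and 4.96% of all genes. SKP2 and CCNF differed by 0.03 and 0.14 in SKOV3, and were named after their values were seen. The SKOV3 call of FBXO5 was lost with the trend removed, when 0 of the 4 were called (2.63% of genes lower).

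Genes that E2F activates at the G1/S transition were taken as 45 genes for replication factors and nucleotide synthesis. In Hey PGCCs 39 of the 45 were downregulated and 0 upregulated (5.22% and 7.67% of all genes), with a median of -1.65. In SKOV3 PGCCs 7 were downregulated and 1 upregulated (4.96% and 9.94% of all genes), with a median of -0.52 and of -0.40 with the GC and length trend removed. Downregulated in both lines were 6 genes of the list, beside 0.834% of all genes. Of these, 4 were RRM2 (ribonucleotide reductase, -2.32 in Hey and -1.57 in SKOV3), CCNE2, POLA2 (a subunit of DNA polymerase alpha, -1.37 and -1.56) and HELLS (a chromatin remodeller, -2.01 and -1.31). How many of the 6 stayed called in both lines with the trend removed was not counted. CDT1, which loads the replicative helicase at origins, was the gene called in opposite directions, at -2.09 in Hey and 1.24 in SKOV3. With the trend removed 4 genes of the list were downregulated and 0 upregulated in SKOV3 PGCCs, beside 2.63% and 2.24% of genes, so that CDT1 was no longer called.
Of the 24 genes of the G2/M program bound by MuvB, 24 were downregulated in Hey PGCCs, with a median of -2.08 (5.22% of all genes), and 7 in SKOV3 PGCCs, with a median of -0.80 (4.96% of all genes). With the trend removed 4 were downregulated in SKOV3 PGCCs (2.63% of genes), at a median of -0.60. TOP2A (topoisomerase, -2.59 and -1.77), CDK1 (the mitotic kinase, -1.66 and -1.87), TTK (a spindle checkpoint kinase, -2.13 and -1.47) and KIF11 (a spindle motor, -1.92 and -1.42) were among the 7 called in both. Of all genes, 0.834% were called lower in both lines. How many of the 7 stayed called in both with the trend removed was not counted.
Hey daughter cells were higher than PGCCs for 40 of the 45 G1/S genes and 24 of the 24 G2/M genes (9.95% of all genes), with medians of 1.91 and 2.50. SKOV3 daughter cells had 1 of 45 and 2 of 24 higher (14.6% of all genes) and 1 of each lower (9.25%), with medians of 0.08 and 0.23. With the trend removed 0 were higher in either list (10.4% of genes), 0 of 45 and 2 of 24 were lower (7.41%), and the medians turned to -0.12 and -0.11. Compared with parental cells the medians were 0.27 and 0.28 in Hey daughter cells and -0.41 and -0.71 in SKOV3 daughter cells, where 4 genes of each list were called lower beside 6.34% of all genes, a share near that of the G1/S list.

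**Figure D5:**
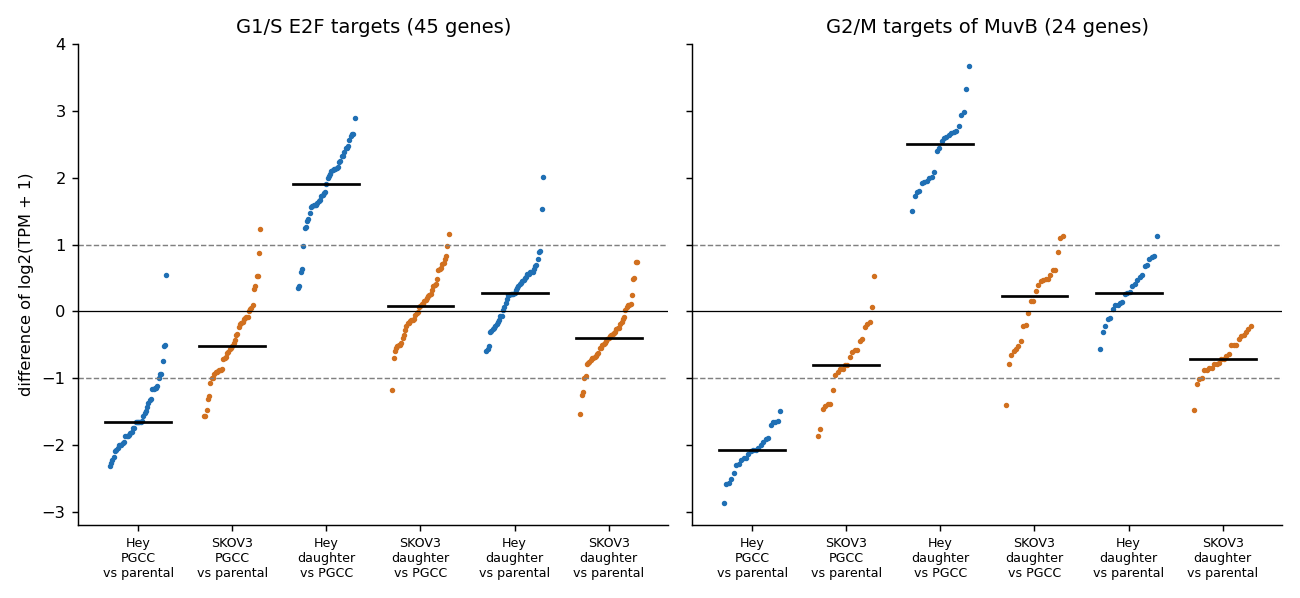
Differences of log2(TPM + 1) for the 45 G1/S E2F targets (left) and the 24 G2/M targets of MuvB (right) in each comparison, with Hey in blue, SKOV3 in orange, 1 point per gene ordered by value, a black bar at the median and dashed lines at a 2-fold change. The Hey medians swing from -1.65 and -2.08 in PGCCs against parental cells to 1.91 and 2.50 in daughter cells against PGCCs, while the SKOV3 medians lie between -0.80 and 0.23, of which the 2 in daughter cells against PGCCs turn to -0.12 and -0.11 with the GC and length trend removed.

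Of 12 genes for Polycomb partners of E2F6, 0 were called in Hey PGCCs and 1 in SKOV3 PGCCs, CBX3 (-1.38, named after its value was seen and not called with the trend removed), with medians of -0.28 and -0.10. Of all genes 5.22% were lower and 7.67% higher in Hey and 4.96% and 9.94% in SKOV3, so 1 of 12 is near the share of all genes. Among 8 germline genes that E2F6 is known to repress, 1 averaged 1 TPM or more. This was SMC1B, a meiotic cohesin gene named for the same reason, which was at most 0.0104 TPM in Hey and had 6.07, 2.70 and 10.1 in SKOV3. Of 7 listed apoptosis genes that E2F1 can activate, TP73 was at most 0.369 TPM in any library and was left out. The other 6 had a median of 0.71 in Hey PGCCs and of -0.69 in SKOV3 PGCCs (-0.42 with the trend removed). In PGCCs of either line 0 of the 6 were called, beside the shares of all genes just given.

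Genes with a pattern most like that of a member were found by the Pearson correlation of log2(TPM + 1) over the 6 libraries, among the 10792 genes that averaged 5 TPM or more. E2F1 was closest to EME1 (a DNA repair nuclease subunit, 0.998), GUCD1 (0.998) and TIMELESS (a replication fork factor, 0.993). EME1 had a TPM of 6.50, 1.97 and 10.8 in Hey and 15.5, 16.6 and 13.7 in SKOV3, with the same order of libraries within each line as E2F1. RBL1 was closest to BCLAF1 (0.993), TMEM67 (0.991) and TPX2 (a spindle assembly factor, 0.973), and RB1 to MPHOSPH6 (0.986), RNF138 (0.984) and PRKAA1 (0.983). For E2F7 the closest were GAPLINC (0.998), UQCRB (0.997) and NECAP1 (0.993). E2F8 came closest to SDHB (0.997), FAR1 (0.994) and THOC2 (0.993). E2F4 was closest to SURF1 (0.987), TRUB2 (0.983) and UMPS (0.977), and E2F2 to COQ6 (0.998), LTA4H (0.997) and BPTF (0.997). HMGN4 (0.995), FKBP7 (0.991) and NUDT16 (0.988) were closest to E2F3, USP8 (0.989), UBE2E3 (0.989) and SLC7A11 (0.982) to E2F5, and CASC3 (0.982), CAMKMT (0.980) and PPIP5K1 (0.977) to E2F6. With 6 libraries, between 9 genes (RB1) and 532 genes (E2F2) reached a correlation of at least 0.95, and the difference between the cell lines is part of each value.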

How the data were processed

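RNA from 6 bulk cultures was sequenced, 1 library per condition. The authors deposited TPM values, 1 per gene symbol and library, which they had obtained with Salmon 0.14.1 and fastp on hg38 per the labels. The step from transcripts to symbols and the annotation release are not given in the sources used here. TPM carries no read counts, so the depth per gene is unknown and no counting error is given.

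Differences of log2(TPM + 1) were computed within each line and called at 2-fold, with no p-value. The background was the 14988 genes that averaged 1 TPM or more. limma 3.58.1 (R 4.3.3) was fitted to these genes with state and cell line as terms, an intensity trend and Benjamini-Hochberg adjustment. Nothing in the labels says that the libraries of a line came from separate experiments. The spread is that between the lines, moderated over genes by empirical Bayes. Gene positions, GC content and length of the canonical transcript are those of GENCODE release 44 (GRCh38), joined by symbol. GC was known for 89.9% of these genes. The GC and length trend was a lowess fit (fraction 0.3, 2 passes). Python 3.11.15, pandas 2.3.3 and statsmodels 0.14.6 were used. Calls, limma and trend removal were tested on simulated data.

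The members and lists were chosen with earlier results of these data known. Named beside the 10 members were TFDP1, TFDP2 and RBL2, per list the genes called in the same direction in PGCCs of both lines (at most 4) or in opposite directions, and for each member the 3 genes with the most similar profile. Alternatives were a pseudocount of 0.1, mean TPM filters, median-ratio and quantile scaling, calls at 1.5-fold and 3-fold, mitochondrial genes left out, removal of the GC and length trend, and for limma also no cell line term, no intensity trend and each library left out.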

Additional observations from a re-analysis of the deposited data

Results flagged for a closer look

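Differences of opposite sign in the 2 lines, each at least 1.5-fold, were found for 4 combinations of gene and comparison. With 1 library per condition the difference between the lines was not tested. E2F4 differed by -0.73 in Hey and 0.84 in SKOV3 between PGCCs and parental cells, so that the Hey change minus the SKOV3 change was -1.57. After removal of the GC and length trend they were -0.68 and 0.24. Between daughter cells and PGCCs, which share the PGCC libraries with that comparison, E2F4 differed by 0.90 and -0.89, a gap of 1.78 (0.70 and -0.53 with the trend removed). E2F7 differed between daughter and parental cells by 0.61 in Hey and -0.70 in SKOV3, a gap of 1.31 (0.57 and -0.89). RBL1 differed in that comparison by 1.02 and -0.64, a gap of 1.66 (1.01 and -0.76). Of all genes, 6.83% met the same rule between PGCCs and parental cells, 10.7% between daughter cells and PGCCs and 6.26% between daughter and parental cells.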

How the results depend on the processing

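Of 528 values of single members under the alternatives, 488 stayed on their side of the 2-fold threshold, 30 passed it newly and 10 no longer passed, and none of the called values changed sign. Counts of downregulated members in Hey PGCCs against parental cells were 3, but 4 with the pseudocount of 0.1 and quantile normalization (E2F2 added) and at 1.5-fold (E2F4 added), and 1 at 3-fold. In SKOV3 PGCCs the main 2 became 0 at 3-fold and with the GC and length trend removed, 4 at 1.5-fold, and 1 was upregulated at 1.5-fold. Hey daughter cells against PGCCs had 4 higher members with the pseudocount of 0.1 and with quantile normalization and 6 at 1.5-fold. They had 1 lower (E2F5) with median-ratio scaling, quantile normalization, mitochondrial genes left out and 1.5-fold. Hey daughter against parental cells had 0 higher with median-ratio scaling, quantile normalization and 3-fold, and 3 higher and 1 lower at 1.5-fold. SKOV3 daughter cells against PGCCs had 1 lower with median-ratio scaling, quantile normalization and 1.5-fold, and 1 higher at 1.5-fold. Against parental cells they had 2 lower with quantile normalization, 4 lower and 1 higher at 1.5-fold and 0 lower at 3-fold. The cause of these moves was not tested beyond the settings' own construction. The shares of all genes called higher or lower under the other thresholds, pseudocount and scalings were not counted. These counts therefore have no background and show only how the calls move with the settings.

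The limma fit gave 0 members an adjusted p under 0.05 in each alternative, also without the replicate block of the cell line (0) and with each library left out (0 to 0), where 1 residual degree of freedom remained and the lone library was assumed to vary like the others. At an unadjusted p under 0.05 between 0 and 2 members passed. Scalings moved the median of all genes by up to -0.18 (quantile normalization, SKOV3 daughter against parental cells). Unknown depth per gene limits the low levels of E2F2, E2F6 and E2F8.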

Other observations

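RB1-DT, a noncoding RNA gene transcribed away from the RB1 promoter, was chosen after its values were seen. It had a TPM of 2.91 in SKOV3 parental cells and 0.0484 and 0.0695 in SKOV3 PGCCs and daughter cells. RB1 was also highest in the parental library (90.9, 38.5 and 35.7 TPM), but its lowest was the daughter library and that of RB1-DT the PGCC library. In Hey it was at most 0.239 TPM.

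Of 7 processed copies of E2F genes that could share reads with their parents, E2F6P4 alone exceeded 1 TPM. E2F3P1, E2F3P2, E2F4P1, E2F6P1, E2F6P2 and E2F6P3 were at most 0.356 TPM in any library. E2F6P4 had 3.46 TPM in SKOV3 parental cells and 1.70 TPM in SKOV3 PGCCs and was listed at 0 in the other 4 libraries, while E2F6 itself had 3.73 TPM and 4.59 TPM there. How reads were divided between E2F6 and E2F6P4 was not tested.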
